A study of Mus musculus with 12 samples.

Results

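The miR-130 and miR-301 family was followed through osteoclast formation in culture. Its members were chosen by name, as the entries mmu-miR-130a, mmu-miR-130b, mmu-miR-301a, and mmu-miR-301b of the array. These are 4 of the 696 miRNA entries it carries beside its controls. All 4 were detected on at least 1 of the 12 arrays and entered the tests. The cells came from the long bone marrow of male C57BL/6 mice aged 6-8 weeks, from which B220/CD45R+ and CD3+ lymphocytes had been removed. They were grown in 30 ng/ml M-CSF plus 30 ng/ml RANKL for 1, 3, or 5 days, with 4 independent cultures per day and 1 single-color array per culture. All 3 groups received both factors, so the comparisons are between days and hold no culture without RANKL. Marrow depleted of lymphocytes still holds several cell types, and in RNA from whole cultures fewer cells of a type and less RNA per cell cannot be told apart.

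A miRNA guides a silencing complex to messenger RNAs, mainly through its seed, the bases next to its 5′ end, so that miRNAs with the same seed can share targets. miR-130a, miR-130b, and miR-301a carry the same seed and are grouped as a family for this reason. miR-130 is known to repress the nuclear receptor PPARγ in fat cell precursors.

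The mature sequences below, from RefSeq (GRCm38.p6), show what the members share and where they part, with the seed (bases 2 to 8) in capitals. miR-721, which has the same seed but is no member by name, and miR-130b*, the other arm of the miR-130b hairpin, are shown because both were measured beside the members.
miR-130a: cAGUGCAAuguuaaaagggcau
miR-130b: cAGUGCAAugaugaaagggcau
miR-301a: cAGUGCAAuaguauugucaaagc
miR-721: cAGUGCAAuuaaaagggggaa
miR-130b*: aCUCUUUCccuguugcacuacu
miR-130a and miR-130b were identical at 20 of 22 bases, whereas miR-130b and miR-301a were identical at 11 of the 22 bases compared from the 5′ end. The seed occurred in 7 of the 1679 mature mouse miRNAs of the RefSeq table. The table had no entry for mmu-miR-301b.

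How far the array can separate such close relatives depends on its probes, and the longest probe of each member is therefore shown, with the bases that differ within each pair in capitals.
miR-130a probe: atgccctttTaAcattgca
miR-130b probe: atgccctttCaTcattgc
miR-301a probe: gctttgacaatacTattgcac
miR-301b probe: gctttgacaatacCattgca
The probes of miR-130a and miR-130b differed at 2 of 18 bases compared, and those of miR-301a and miR-301b at 1 of 20. Each probe for miR-301b thus had 1 mismatch to mature miR-301a. How much of a member's signal came from its closest relative was not tested.

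The members lie on 3 chromosomes. Probe places, listed for mm9 by the array's annotation, were chr2:84581317-84581334 (minus strand) for miR-130a and chr11:86926559-86926578 (plus strand) for miR-301a. On the minus strand of chromosome 16 lay miR-130b at chr16:17124209-17124225, its other arm miR-130b* at chr16:17124169-17124187, and miR-301b at chr16:17124551-17124569. miR-130b and miR-301b thus fall within 361 bases of each other. In the gene table of GRCm38.p6, Mir130b and Mir301b are neighbors, and the protein-coding gene 2610318N02Rik spans both. The hairpin gene of miR-301a, Mir301, lies within the bounds of Ska2, and Mir130a lies between Ypel4 and Gm19426.

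Across the 12 arrays, between 186 and 276 miRNAs were detected. The median of their total signals, each a background-subtracted sum over probes, was 6.62 to 16.8 times the median local background of single spots. The array of day 5 replicate 4 had both the fewest detected miRNAs and the highest of these ratios. Days 1 and 5 lay on slide 1 and day 3 on slide 2, each read in its own scan, so that day 3 and its slide cannot be told apart. Day 1 lay in row 1 of its slide and day 5 in row 2, so that for these days the row and the day cannot be told apart either. Values below are total signals, in linear intensity units that had not been normalized between arrays, or quantile normalized signals on the log2 scale, whose changes are relative to the whole set of miRNAs tested.

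The 4 members moved in different ways. miR-301a was higher at day 5 than at day 1, miR-130a was low at day 3, and miR-301b stayed near the background. miR-130b differed little between days 1 and 5 after quantile normalization (-0.22). Without normalization every day 5 array of miR-130b was below every day 1 array (-0.79), while the median change of all miRNAs tested was -0.50. In the moderated F test of limma over the 3 days, 3 of the 4 members passed an adjusted p of 0.01 (miR-130a, miR-130b, and miR-301a), while 62.9% of the 334 miRNAs tested did so. The count for the members thus lay close to this background.

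**Figure D1:**
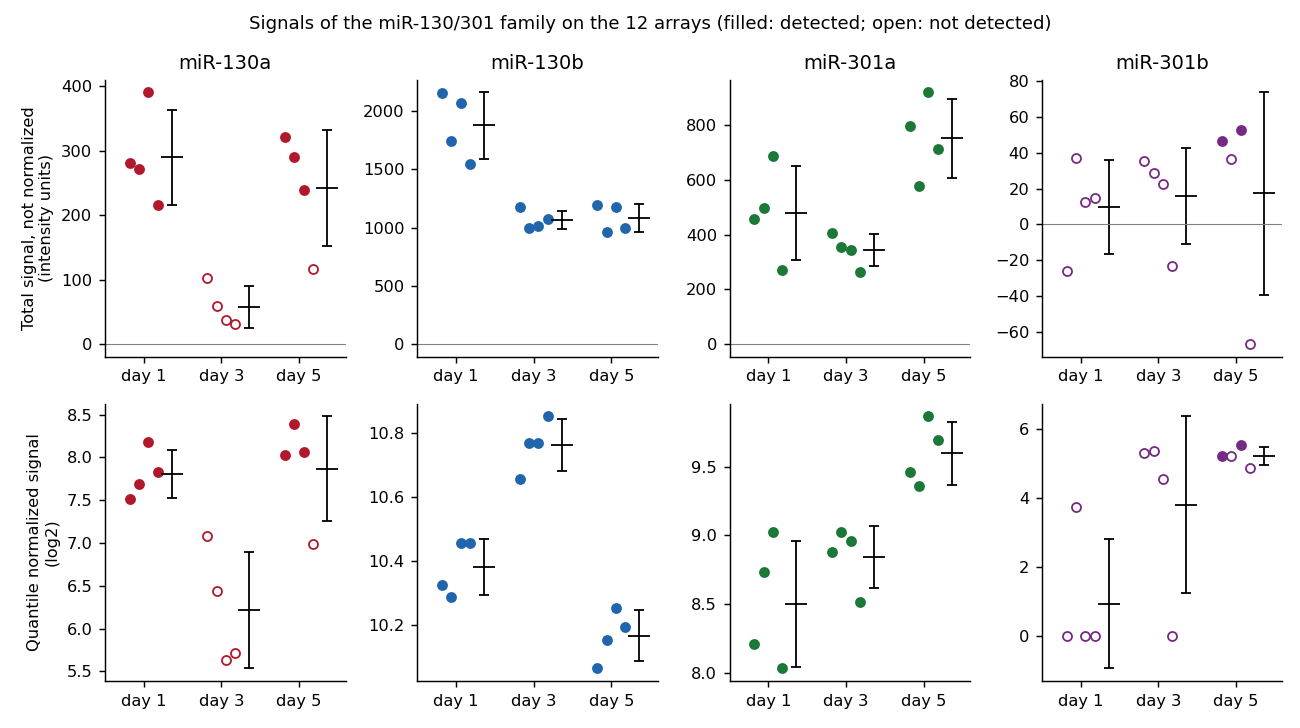
Signals of the 4 members on each of the 12 arrays, as total signal in intensity units without normalization (top) and as quantile normalized log2 signal (bottom). Points are arrays in the order of their replicate numbers, filled where the miRNA was detected and open where it was not; bars are the mean ± SD (n = 4), and levels are not comparable between panels. miR-130a was detected on 0 of 4 arrays at day 3, and miR-301b on 2 of 12 arrays in all.

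miR-301a, the member whose gene lies within the bounds of Ska2, was detected on all 12 arrays. Its total signals for replicates 1 to 4 were 457, 499, 687, and 270 at day 1. At day 3 they were 406, 353, 344, and 265, and at day 5 they were 795, 577, 919, and 713. Every day 5 array was thus above every day 3 array, whereas days 1 and 5 overlapped, because replicate 3 of day 1 was above replicate 2 of day 5.

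After quantile normalization the mean log2 signal of miR-301a was 8.50 ± 0.46 at day 1, 8.84 ± 0.23 at day 3, and 9.60 ± 0.23 at day 5 (SD, n = 4). On this scale the day 5 arrays were above all arrays of day 1 and of day 3. miR-301a rose by 1.09 from day 1 to day 5 on the log2 scale (SE 0.22, adjusted p = 0.00119 by limma), which is 2.13-fold. This rise stood among many, since 31.7% of the 334 miRNAs were called higher and 29.0% lower between these days, and 44.9% of all miRNAs tested had a smaller change than miR-301a in either direction.

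The step from day 1 to day 3 was 0.34 for miR-301a (SE 0.22, 95% interval -0.15 to 0.84) and did not pass the test (limma, adjusted p = 0.202). Between days 3 and 5 the step was 0.75 (SE 0.22), with an adjusted p of 0.0229 by limma, above the threshold of 0.01. The day 5 value was higher than that of day 1 under each of the 15 other settings tried, with changes from 0.47 to 1.56, but the call was lost in 3 of them. These were no normalization (0.71), scaling to the 75th percentile of miRNAs detected on all arrays (0.70), and quantile normalization of the 148 miRNAs detected on all arrays (0.47). Of the 15 settings, the intensity trend, the replicate block, and the threshold of 0.05 could not move the estimate. The floor of 0.1 and the fit without a filter also left it at 1.09. With only the slide of days 1 and 5 in the fit, the change was 1.10 (limma, adjusted p = 0.00518).

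The 2 probes of miR-301a moved unequally. Without normalization, the log2 signal of the 21-base probe changed by 0.81 from day 1 to day 5 and that of the 20-base probe by 0.38. From day 1 to day 3 the same probes changed by -0.28 and -0.88. Both were therefore lower at day 3 and higher at day 5 than at day 1 before normalization, and no test was made on single probes.

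miR-130b, encoded beside miR-301b on chromosome 16, was also detected on all 12 arrays. Its total signals for replicates 1 to 4 were 2152, 1740, 2072, and 1545 at day 1. They were 1173, 999, 1018, and 1072 at day 3, and 1197, 960, 1179, and 995 at day 5. Before normalization every array of day 3 and of day 5 was below every day 1 array, and days 3 and 5 overlapped. The median change of all miRNAs tested was itself -0.77 from day 1 to day 3 and -0.50 from day 1 to day 5 without normalization. How many of all miRNAs separated in this way before normalization was not counted.

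After quantile normalization the order was another. The mean log2 signal of miR-130b was 10.38 ± 0.09 at day 1, 10.76 ± 0.08 at day 3, and 10.17 ± 0.08 at day 5 (SD, n = 4), and no array of a day overlapped with those of another day. Such separation was common, as it held for 59.6% of all miRNAs tested between days 3 and 1, 62.6% between days 5 and 1, and 39.2% between days 5 and 3.

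In these values miR-130b rose by 0.38 from day 1 to day 3 (SE 0.07, adjusted p = 0.00117 by limma), a 1.30-fold change. It fell by 0.60 from day 3 to day 5 (SE 0.07, adjusted p = 0.000168 by limma). The difference between days 5 and 1 was -0.22 (SE 0.07, adjusted p = 0.0227 by limma) and did not pass the threshold. Of all miRNAs tested, 9.28% had a smaller difference between days 1 and 5 in either direction than miR-130b, 21.6% between days 1 and 3, and 59.0% between days 3 and 5.

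The direction for miR-130b turned with the scaling. Between days 1 and 3 its change was -0.012, -0.052, and -0.081 under the 3 linear scalings and was not called (limma, adjusted p = 0.957, 0.696, and 0.427). With no normalization it was -0.81 and was called lower (limma, adjusted p = 0.000581). The median change of all miRNAs tested was 0.18 with quantile normalization and -0.77 with none, so that miR-130b stood 0.20 above the median in the first case and -0.032 from it in the second. Between days 1 and 5 its change was -0.45 to -0.80 without quantile normalization, and it was 0.021 with normexp background correction and 0.14 with the processed spot signal. Its call at day 3 is thus stated for quantile normalized total signals only. There too it was lost when only the 148 miRNAs detected on all arrays were normalized (0.071, limma, adjusted p = 0.307). Both of its probes changed alike, by -0.78 and -0.82 from day 1 to day 3 and by -0.78 and -0.79 from day 1 to day 5 without normalization.

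**Figure D2:**
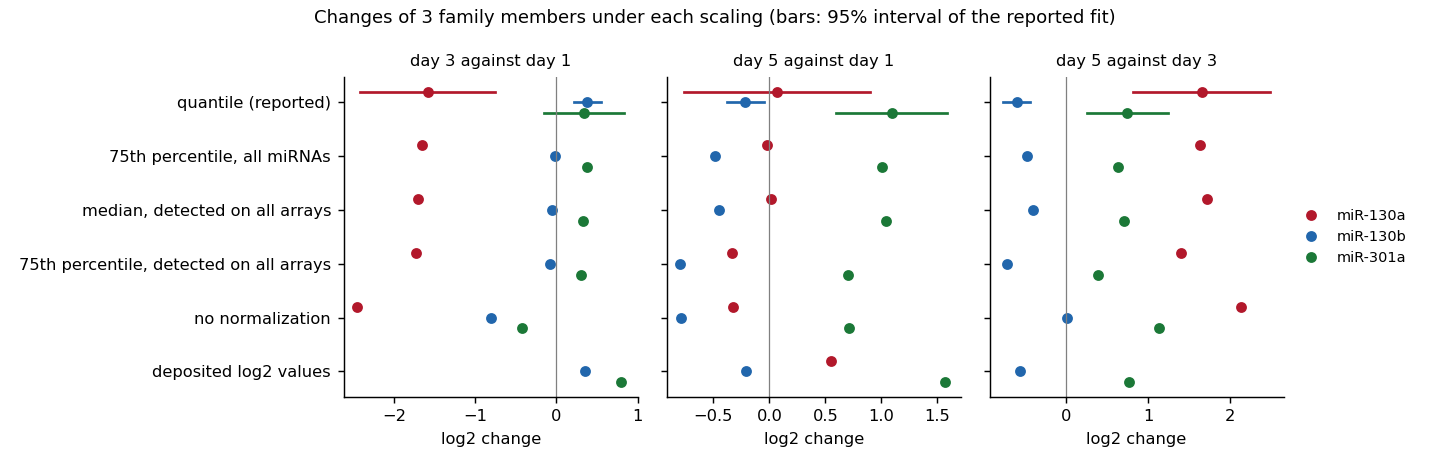
Log2 changes of miR-130a, miR-130b, and miR-301a between each pair of days, under quantile normalization (with the 95% interval), 3 linear scalings, no normalization, and the values normalized by the authors. miR-301a was above 0 for day 5 against day 1 in all 6, miR-130b changed side for day 3 against day 1, and the deposited values hold none for miR-130a at day 3, where it was not detected.

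Levels of different probes cannot be set against each other, but the log2 difference of both signals on an array can be followed over the days, and linear scaling cancels in it. The log2 difference of miR-301a and miR-130b was compared in this way, as both were detected on all arrays. Without normalization it was -2.23, -1.80, -1.59, and -2.52 on the day 1 arrays, -1.53, -1.50, -1.56, and -2.01 on the day 3 arrays, and -0.59, -0.73, -0.36, and -0.48 on the day 5 arrays. The day 5 arrays stood apart from the 8 others, and how common such separation was among ratios of other miRNAs was not tested.

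From day 1 to day 5, the ratio of miR-301a to miR-130b increased 2.82-fold without normalization (log2 1.49, SE 0.22) and 2.48-fold after quantile normalization (log2 1.31, SE 0.25). With 4 arrays a day, an exact two-sided permutation test gave p = 0.0286 for both, the smallest value this design allows. Between days 3 and 5 the ratio increased by 1.11 on the log2 scale without normalization (SE 0.15) and by 1.35 after it (SE 0.16), again with an exact p of 0.0286. Between days 1 and 3 it differed by 0.38 (SE 0.24, exact p = 0.171) without normalization and by -0.04 (SE 0.27, exact p = 0.943) after it, so that no change was shown. Of the 6 comparisons of within-array ratios made, all but that of miR-301a with miR-130b between days 1 and 5 were chosen after values had been seen. Adjusted over the 6, the exact p of both increases was 0.0857.

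**Figure D3:**
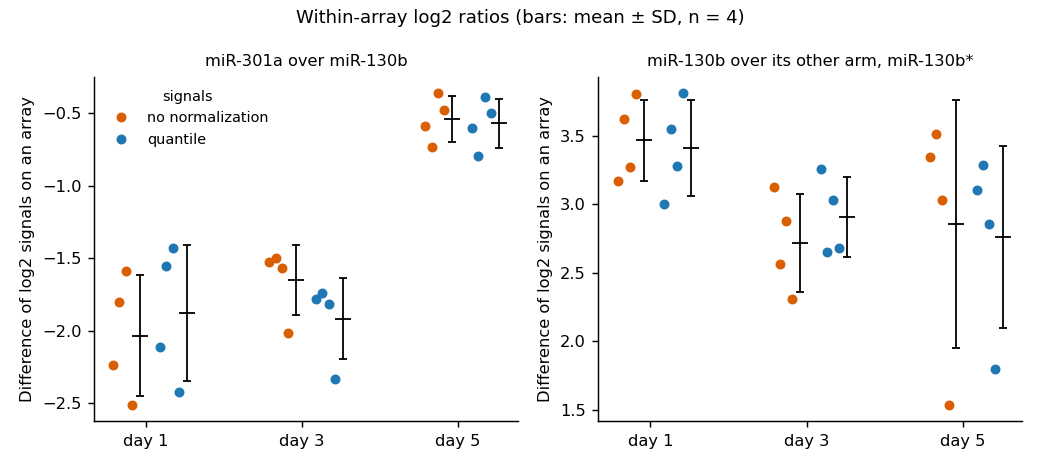
Difference of 2 log2 signals measured on the same array, for miR-301a over miR-130b (left) and for miR-130b over miR-130b* (right), by day, without normalization and after quantile normalization. Points are arrays and bars the mean ± SD (n = 4). On the left the 4 day 5 arrays lie above the other 8 arrays; on the right replicate 4 of day 5 lies below all others.

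The other arm of the miR-130b hairpin, miR-130b*, was detected on all 12 arrays, and its total signals ranged from 111 to 240 on day 1 arrays, from 134 to 216 on day 3 arrays, and from 84.3 to 344 on day 5 arrays. The value of 344 belonged to replicate 4 of day 5, above every other array. Its normalized change was 0.89 from day 1 to day 3 (adjusted p = 0.0389 by limma) and 0.43 from day 1 to day 5 (adjusted p = 0.275 by limma), and neither passed the threshold. Without day 5 replicate 4 the change from day 1 to day 3 was 0.86 (limma, adjusted p = 0.00625) and passed it.

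The log2 difference of miR-130b and miR-130b* averaged 3.41 ± 0.35 on the day 1 arrays, 2.90 ± 0.29 on the day 3 arrays, and 2.76 ± 0.66 on the day 5 arrays after quantile normalization (SD, n = 4). Its differences between days had exact p-values of 0.114, 0.143, and 0.857. Without normalization it was lower on every day 3 array than on every day 1 array, by -0.75 in the mean (SE 0.23, exact p = 0.0286, not adjusted), a difference of -0.50 (SE 0.23) after normalization.

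miR-130a, the member with its own place on chromosome 2, was detected on all 4 arrays at day 1, on no array at day 3, and on 3 of 4 at day 5. Its total signals for replicates 1 to 4 were 280, 271, 390, and 216 at day 1, 102, 59.6, 37.2, and 31.0 at day 3, and 321, 290, 239, and 117 at day 5. Every day 3 array was below every array of days 1 and 5 before normalization, while after it the day 3 and day 5 arrays overlapped (exact permutation p = 0.0571). The array of 117 at day 5 was again replicate 4, on which miR-130a was not detected.

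Since miR-130a was not detected at day 3, its level there is only an upper limit. Each day 3 array was counted with the higher of its own normalized signal and a limit. With the lowest signal of any miRNA detected on the array as the limit, miR-130a was 2.65-fold higher at day 1 and 2.77-fold higher at day 5. On all day 3 arrays but replicate 4 its own undetected signal was above that limit, so these folds are no firm lower bounds. A stricter limit, the 5th percentile of all detected signals on the array, lowered the folds to 1.49 and 1.56. The limma tests used the signals as read. These changed by -1.59 from day 1 to day 3 (adjusted p = 0.00367) and by 1.65 from day 3 to day 5 (adjusted p = 0.00564). The day 5 mean includes replicate 4, on which miR-130a was not detected.

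Between days 1 and 5 the normalized signal of miR-130a differed by 0.07 (SE 0.37, 95% interval -0.77 to 0.90; adjusted p = 0.877 by limma). The interval leaves room for changes of up to 0.90 on the log2 scale. The low signal at day 3 kept its direction in each of the 12 settings that gave a value, although quantile normalization of all 696 miRNAs took the call away (-1.70, limma, adjusted p = 0.0364). Of the 12, the intensity trend, the replicate block, and the threshold of 0.05 could not move the estimate. The call was also lost without day 1 replicate 3 (-1.48), without day 3 replicate 3 (-1.40), or without day 3 replicate 4 (-1.42). With the replicate number as a block, the difference between days 3 and 5 had an adjusted p of 0.0109 by limma and was not called. It lost its call in 4 of 12 settings in all and without each of 6 arrays, replicates 2, 3, and 4 of day 3 and 1, 2, and 3 of day 5.

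The mean signals of the 2 probes of miR-130a, without normalization, were 125 and 164 at day 1, 22.3 and 35.2 at day 3, and 106 and 136 at day 5. Those of day 3 belong to arrays on which the miRNA was not detected, and no fold is drawn from them. Since all day 3 arrays lay on a slide of their own, this low point cannot be told apart from the slide. miR-130b and miR-301a were detected on every array of the day 3 slide, and without normalization they changed by -0.81 and -0.42 from day 1 to day 3. Whether the slide lowered the signals was not tested.

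miR-301b, whose gene neighbors that of miR-130b, was detected only on replicates 1 and 3 of day 5. Its total signals for replicates 1 to 4 were -26.0, 37.3, 12.6, and 14.7 at day 1, 35.7, 28.7, 22.7, and -23.3 at day 3, and 46.8, 36.8, 52.6, and -66.9 at day 5. A value below 0 means that the spots were dimmer than the background taken from them. The days overlapped in these signals.

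In the quantile normalized values miR-301b was called higher at day 5 than at day 1 (limma, adjusted p = 0.00984). It entered this test only through its detection on 2 day 5 arrays, and with all 696 miRNAs in the fit it was not called (limma, adjusted p = 0.463). Its mean log2 signal was 5.21 ± 0.27 at day 5 and 0.94 ± 1.87 at day 1 (SD, n = 4), and 3 of the 4 day 1 arrays were at the floor of 1 set before the logarithm. Quantile normalization gave the day 5 array with a total signal of -66.9 a log2 value of 4.88, and the mean total signals were 9.64 at day 1 and 17.3 at day 5, so that no fold is given. The call was lost in 8 of 12 other settings, and the change was 0.93 without normalization.

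By pairs of days, the calls of the family were few in each direction. From day 1 to day 3, miR-130b was called higher, as were 27.2% of all miRNAs tested, and miR-130a lower, as were 25.1%. Between days 1 and 5, miR-301a and miR-301b were called higher, as were 31.7%, and no member lower, as were 29.0%. The call of miR-301b adds no support here, since this member passed the filter only through day 5. From day 3 to day 5, miR-130a was called higher, as were 14.7% of all, and miR-130b lower, as were 10.8%, and with the replicate number as a block only miR-130b was called. The median change of the 4 members was 0.36, 0.58, and 1.08 in these comparisons, and that of all 334 miRNAs was 0.18, 0.11, and 0. The medians of the members include miR-301b, not detected at days 1 and 3, and miR-130a, not detected at day 3. The value of 1.08 lies between the changes of miR-301a (0.75) and miR-301b (1.41), and it is not read as a rise of the family.

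**Figure D4:**
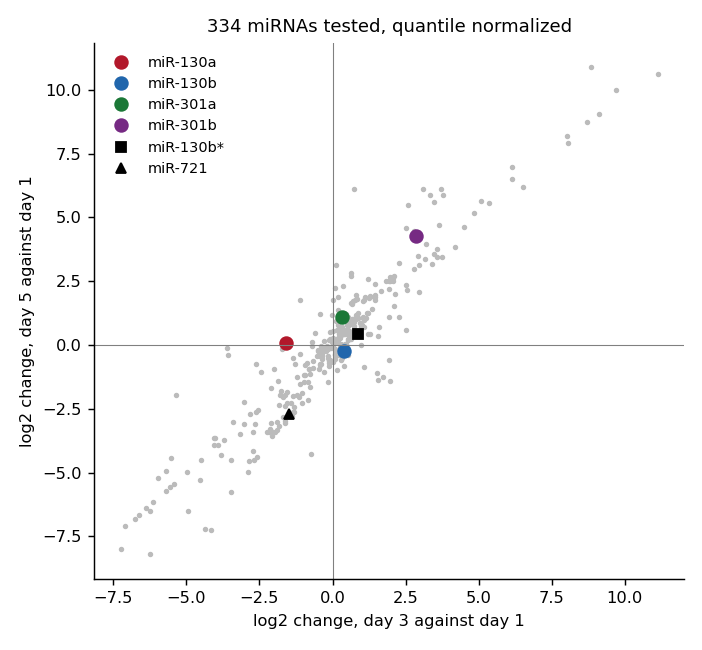
Log2 changes of the 334 miRNAs tested, day 3 against day 1 (horizontal) and day 5 against day 1 (vertical), from quantile normalized signals. Both axes use the same day 1 arrays. The 4 members are colored, miR-130b* and miR-721 are in black; miR-130b lies close to the origin at 0.38 and -0.22, and miR-301b, detected on 2 arrays, lies at 2.86 and 4.28.

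miR-721, with the same seed as the members, took another course. Its total signals were 2702, 2180, 1894, and 1850 at day 1, 517, 373, 384, and 338 at day 3, and 380, 221, 343, and 81.5 at day 5, the last of which was not detected. Every array of day 3 and day 5 was below every day 1 array. miR-721 fell by 1.49 from day 1 to day 3 (adjusted p = 0.00281 by limma) and by 2.70 from day 1 to day 5 (adjusted p = 2.93e-05 by limma). Its probes had 12 to 15 bases, shorter than any probe of the members.

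miRNAs whose seed overlaps that of the family with a shift by 1 base are shown by a representative of each of both groups, again with bases 2 to 8 in capitals.
miR-148a: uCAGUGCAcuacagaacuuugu
miR-19b: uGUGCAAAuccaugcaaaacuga
Of these 5 miRNAs, 4 rose from day 1 to day 5 and 1 fell. The rises were 2.57 for miR-152, 1.05 for miR-19a, 0.70 for miR-148b, and 0.46 for miR-19b, all called by limma with adjusted p-values of 0.000122 or less. miR-148a fell by 0.43 (adjusted p = 0.000177 by limma). Of all miRNAs tested, 31.7% were called higher and 29.0% lower between these days. The call was lost in 3 of 15 other settings for miR-19a, in 3 of 15 for miR-19b, and in 2 of 15 for miR-148b. It was kept in all 15 for miR-148a and in all 14 that gave a value for miR-152. miR-152 was detected on 2 of 4 arrays at day 1 and on all at day 5.

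miRNAs with the most similar course were sought among the other 147 detected on all 12 arrays, by Pearson's r of the normalized log2 signals over the arrays. The points share slide, day, and scaling, so that r is a description only. For miR-301a the highest were miR-362-3p (r = 0.91), miR-362-5p (0.91), and miR-151-5p (0.91), with changes of 1.62, 1.73, and 1.96 from day 1 to day 5. For miR-130b they were miR-17* (r = 0.90), miR-1949 (0.89), and miR-2141_v15.0 (0.86), with changes of -0.30, -0.58, and -0.39 between these days. The value for miR-130b with miR-301a was -0.44.

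Marker miRNAs of other cell types also moved with the days. The summed normalized signal of the 2 erythroid markers on the array, of 4 listed (miR-451 and miR-144), was 25488 to 38092 at day 1, 1285 to 2139 at day 3, and 136 to 268 at day 5. That of the 2 megakaryocytic and endothelial markers (both arms of miR-126) was 579 to 956 at day 1, and neither was detected at days 3 and 5. The sum of 5 stromal markers (miR-143, miR-145, both arms of miR-199a, and miR-214) was 437 to 666 at day 1, 591 to 669 at day 3, and 2600 to 3630 at day 5. Of these 5, miR-145 was detected at day 1 but at neither later day, miR-143 was detected at day 5 alone, and miR-214 was not detected at day 3. The stromal sum was highest at day 5, as miR-301a was, and the part of stromal cells in the change of miR-301a was not tested.

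The sum of 3 lymphoid markers (miR-150, miR-181a, and miR-181b) was 1840 to 2758 at day 1, 1933 to 2445 at day 3, and 1626 to 2230 at day 5, with miR-150 not detected after day 1. The 3 granulocytic and monocytic markers (miR-223 and both arms of miR-142) were detected on every day, with sums of 98968 to 107910, 77279 to 88317, and 83340 to 96010.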

How the data were processed

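RNA from 12 cultures was hybridized to 12 single-color Agilent arrays. The scanner files deposited by the authors hold linear intensity values written by Feature Extraction 9.5.3.1 (per the file headers), with background subtracted and no normalization between arrays. Their total signal adds up a miRNA's probes, and a mark says whether it was detected. Each member has 20 spots per array. The authors also deposited log2 values, quantile normalized in GeneSpring GX and empty where a miRNA was not detected; these served as an alternative.

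Here, total signals were quantile normalized over the 334 miRNAs with detection on 1 or more arrays, raised to a floor of 1 (372 values, 9.28%), and converted to log2. limma 3.58.1 (lmFit, eBayes) in R 4.3.3 fitted 1 mean per day over all arrays, with Benjamini-Hochberg adjustment over all 334 and a threshold of 0.01. The script was tested on simulated data. Exact permutation tests used scipy 1.17.1 in Python 3.11.15, and figures matplotlib 3.10.9. The number of arrays, 4 per day, limits the precision.

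The miRNAs named were the members, other arms on the array, miRNAs with the same seed or one shifted by 1 base, the 3 most similar in course to each member detected on all arrays, and the marker lists. The members and lists were chosen with earlier results of these data known. Deviations from the day means over 148 miRNAs correlated between same-numbered arrays with r = 0.274 to 0.614 for days 1 and 3, 0.265 to 0.784 for days 3 and 5, and 0.0868 to 0.562 for days 1 and 5, and the same number was highest in 9 of 12 cases. Arrays with the same number also lay in the same column of their slide. Pairs of cultures and a shared column therefore cannot be told apart in these values. All tests reported above without a block treated the arrays as unpaired, and the replicate number entered only as an alternative. A paired exact test of the ratio of miR-301a to miR-130b was made for days 1 and 5 alone. Alternatives covered the filter on dim miRNAs, the scaling, the signal, background correction, the floor (0.1), an intensity trend, the methods' one-way analysis of variance, the threshold (0.05), the replicate number as a block, the slide, and each array left out in turn.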

Additional observations from a re-analysis of the deposited data

Results flagged for a closer look

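Among 15 day groups of 4 arrays examined for a sample far from the others, 2 were picked out, both of miR-301b. Chance picks about 1 in 20 such groups. At day 1, the gap from the highest array (replicate 2) to the next made up a fraction of 1 of the range of the normalized values, because the other 3 arrays were at the floor. At day 3, the gap from the lowest array (replicate 4), also at the floor, made up 0.851 of the range. miR-301b was not detected on any array of these days.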

How the results depend on the processing

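All values here are log2 changes or counts of the 4 members called. A member outside a fit could not be counted. With detection on all 12 arrays these were miR-130a and miR-301b, and with detection on all 4 arrays of a day miR-301b. The deposited values gave no result for miR-301b, or for miR-130a in comparisons with day 3. Where a result otherwise changed, the cause was not tested. From day 1 to day 3, the count of 2 members called became 1 without a filter, with either 75th percentile scaling, the median scaling, the processed signal, normexp, or the deposited values, and 0 with detection on all 12 arrays; without single arrays it was 1 to 2. miR-130a lost its call without a filter (-1.70), and was -1.89 to -1.40 without single arrays. miR-130b reversed with the 75th percentile of miRNAs detected on all arrays (-0.081), the 75th percentile of all (-0.012), the median (-0.052), and no normalization (-0.81). With no normalization it was called lower, so that the count stayed at 2. It lost its call with detection on all 12 arrays (0.071), the processed signal (0.32), and normexp (0.22). miR-301a reversed with detection on all 12 arrays (-0.14) and no normalization (-0.42). miR-301b was 2.36 to 4.17 without single arrays and passed the threshold without day 3 replicate 4.

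From day 1 to day 5, the count of 2 became 1 with detection on all 4 arrays of a day or all 12 arrays, without a filter, with either 75th percentile, no normalization, the processed signal, normexp, the deposited values, or a floor of 0.1, and was 1 to 2 without single arrays. With detection on all 12 arrays, the 75th percentile of miRNAs detected on all, and no normalization, the member called was miR-130b, as lower. With the median the 2 called were miR-301a, as higher, and miR-130b, as lower. miR-130a reversed without a filter (-0.059), with the 75th percentiles (-0.34 and -0.025), no normalization (-0.33), and normexp (-0.0073), and was -0.11 to 0.37 without single arrays. miR-130b passed with detection on all 12 arrays (-0.59), the 75th percentile of miRNAs detected on all (-0.80), the median (-0.45), no normalization (-0.79), and a threshold of 0.05 (-0.22), and reversed with the processed signal (0.14) and normexp (0.021). miR-301a lost its call with detection on all 12 arrays (0.47), the 75th percentile of miRNAs detected on all (0.70), and no normalization (0.71), and was called without each single array (0.93 to 1.27). miR-301b lost its call without a filter (2.41), with the 75th percentiles (0.83 and 1.16), the median (1.07), no normalization (0.93), the processed signal (4.87), normexp (0.20), and a floor of 0.1 (6.77), and without replicates 1, 3, or 4 of day 1, 1, 2, or 3 of day 3, and 1, 2, or 3 of day 5 (range without single arrays 3.91 to 5.05). On the slide of days 1 and 5 alone, 2 members were called.

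From day 3 to day 5, the count of 2 became 1 with detection on all 12 arrays, without a filter, with the 75th percentile of miRNAs detected on all, the median, the processed signal, or the deposited values, and 0 with the 75th percentile of all; without single arrays it was 1 to 2. miR-130a lost its call without a filter (1.65) and with the 75th percentiles (1.40 and 1.64), and without replicates 2, 3, or 4 of day 3 and 1, 2, or 3 of day 5 (1.46 to 1.96). miR-130b reversed with no normalization (0.019) and lost its call with the 75th percentile of all (-0.48), the median (-0.40), the processed signal (-0.18), and normexp (-0.19). miR-301a passed with no normalization (1.13), normexp (0.64), and a threshold of 0.05 (0.75). miR-301b reversed with the 75th percentile of miRNAs detected on all (-0.055) and normexp (-0.0018). In the F test, 3 members became 1 with detection on all 12 arrays or the deposited values and 0 with the 75th percentile of all, while the methods' analysis of variance gave 3 with and without adjustment.

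Among other miRNAs, reversals were seen from day 1 to day 3 for miR-148b (-0.11 with detection on all 12 arrays, -0.48 unnormalized), miR-130b* (-0.061 unnormalized), and miR-19b (-0.19 unnormalized), from day 1 to day 5 for miR-130b* (-0.19 with the 75th percentile of miRNAs detected on all, -0.18 unnormalized), and from day 3 to day 5 for miR-19b (-0.31 and -0.068 with the 75th percentiles), miR-148a (0.28 unnormalized), and miR-19a (0.34 unnormalized). miR-130b* from day 1 to day 3 passed a threshold of 0.05 (0.89) and was 0.78 to 1.04 without single arrays. Without normalization 29 miRNAs were called higher and 124 lower from day 1 to day 3, against 91 and 84 after quantile normalization. These numbers were 65 and 103 against 106 and 97 from day 1 to day 5, and 81 and 5 against 49 and 36 from day 3 to day 5. With the 75th percentile of miRNAs detected on all arrays they were 68 and 80, 72 and 113, and 25 and 49 in these comparisons.

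With the replicate block, miR-130a lost its call from day 3 to day 5 (1.65), so that 1 member was called there, and the ratio of miR-301a to miR-130b, 1.31, had an exact p of 0.125, the smallest that 4 pairs allow. miR-148a also lost its call from day 3 to day 5 (-0.28), and the block changed no other call of the miRNAs compared under all settings. Without single arrays that ratio changed by 1.13 to 1.46, where 3 arrays against 4 cannot reach 0.05. The deposited values gave no result for miR-130a at day 3 or for miR-301b.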
